A study of Mus musculus with 12 samples.

Results

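Integrins, laminins and the glycoproteins that they bind formed the adhesion genes described here. The genes were taken by name from the annotated loci of the expression table: integrin alpha genes, integrin beta genes, laminin alpha, beta and gamma genes, and Fn1, Vtn, Spp1, Nid1 and Nid2. The rule used no measured difference between groups. Earlier results of these data were known when the genes were chosen, so their counts beside all genes are descriptive. The rule found 38 genes among 24394 annotated gene symbols. Of these, 26 reached at least 1 FPKM in at least 3 libraries and were tested, and 12 did not. FPKM counts fragments per length of transcript and per number of fragments mapped, so levels of different genes are set side by side on a scale per length.

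Integrins are receptors of the cell surface that pair an alpha with a beta chain and tie the matrix outside the cell to the actin skeleton inside it. Laminins are built from an alpha, a beta and a gamma chain and are, with nidogens and type IV collagen, the main components of basement membranes. Fibronectin and osteopontin carry a short arginine-glycine-aspartate motif that a subset of integrins binds, and certain integrins are made by leukocytes. In the gut wall, enteric glia surround the neurons of the myenteric plexus, which lies between muscle layers and is bordered by basement membrane.

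The libraries came from C57BL/6 mice that carried Sox10::CreERT2+/- and Rpl22tm1.1Psam/J, also in the controls. The Cre recombinase is driven by Sox10 and needs tamoxifen, which all mice ate as the citrate in chow at 400 mg/kg for 2 weeks before a week of plain chow. Recombination tags the ribosomal protein Rpl22, and RNA bound to tagged ribosomes was precipitated 48 h after an enema, from the distal colon's myenteric plexus. Each group had 3 libraries. DNBS_Vehicle mice received 5 mg of the hapten DNBS, which causes colitis, in 0.1 ml of 50% ethanol by enema, and daily injections of 0.1% DMSO into the abdomen. Saline_Vehicle mice received 0.1 ml of saline and the same DMSO. DNBS_GR159897 and Saline_GR159897 mice received those enemas and 0.5 mg/kg of GR159897, an antagonist of the neurokinin 2 receptor, in 0.1% DMSO. Injections ran over 3 days from 24 h before the enema. No ethanol is listed for the saline enema, and DNBS and ethanol cannot be told apart. Females numbered 2 in DNBS_GR159897 and 1 in each other group. Neither age nor a batch is named, and the labels do not state that each library was a separate mouse, so p-values measure the spread between these libraries.

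The DNBS_GR159897 replicate 1 library stood apart. Annotated loci held 22.6% of its summed FPKM, against 53.8% to 95.1% in the other 11 libraries. A lower share with DNBS was not confined to it. The share was 56.4% and 64.5% in DNBS_GR159897 replicates 2 and 3, against 95.1%, 75.4% and 78.1% in Saline_GR159897, without overlap. It was 75.6%, 53.8% and 84.0% in DNBS_Vehicle, against 88.8%, 83.5% and 92.6% in Saline_Vehicle, with overlap. Values scaled to the same annotated sum are given below. Of 10 listed enteric glial markers 8 were found, of which Gfap is blank in the Saline_Vehicle libraries and Foxd3 is listed at 0 in 10 of 12 libraries. The other 6 summed to 9.21 FPKM in DNBS_GR159897 replicate 1, against 215 to 816 FPKM in the other 11. Its 12 epithelial markers summed to 1250 FPKM, against at most 45.2, and its 8 smooth muscle markers to 303 FPKM, against 1736 to 6761. All 8 smooth muscle markers were at 1 FPKM or more in every library. Each call on the 26 genes is also given without DNBS_GR159897 replicate 1.

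Within the integrin beta family, Itgb1 was the most abundant chain in every library. Itgb1, the partner of most alpha chains, had 116, 213 and 153 FPKM in the DNBS_Vehicle libraries, against 84.6, 58.6 and 68.6 FPKM in the Saline_Vehicle libraries, and 36.9, 174 and 115 FPKM in the DNBS_GR159897 libraries, against 75.2, 67.7 and 98.5 FPKM in the Saline_GR159897 libraries. It made up 88.2% ± 2.73 of the summed integrin beta FPKM in DNBS_Vehicle and 68.2% ± 6.48 in Saline_Vehicle (SD, n = 3 each), and 87.4% ± 3.05 in DNBS_GR159897 and 71.4% ± 8.16 in Saline_GR159897 (SD, n = 3 each). The lowest share in a DNBS library, 84.5%, was above the highest in a saline library, 79.0%. No test was run on this share, which rises when other chains are low as well as when Itgb1 is high.

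Among the alpha chains, the order of levels differed between DNBS and saline libraries. Itga2, which with Itgb1 forms a collagen receptor, made up 16.5% ± 4.84 of the summed alpha FPKM in DNBS_Vehicle and 31.1% ± 6.98 in Saline_Vehicle, and 8.93% ± 2.40 in DNBS_GR159897 and 34.4% ± 11.2 in Saline_GR159897 (SD, n = 3 each). Itga7, a laminin receptor, made up 17.7% ± 2.79 in DNBS_Vehicle and 10.2% ± 4.81 in Saline_Vehicle, and 20.3% ± 6.94 in DNBS_GR159897 and 12.0% ± 7.06 in Saline_GR159897 (SD, n = 3 each). Itga2 was thus above Itga7 in all 6 saline libraries, and Itga7 was above Itga2 in 5 of 6 DNBS libraries, all but DNBS_Vehicle replicate 1. The laminin receptors Itga6 and Itga3 ranged from 7.93% to 27.1% and from 5.26% to 16.6% over the 12 libraries. The loci that merge Itga1 with Pelo and Itga5 with Mir6963 are not in the sums, because their FPKM cannot be assigned to a single gene. Itga10 shares a locus with other genes, and Itgad had no annotated locus, so neither was counted.

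Laminin chains were led by Lamb2, Lamc1, Lama5 and Lama4. Without DNBS_GR159897 replicate 1, Lamb2 made up 74.8% ± 5.26 of the beta chain FPKM, Lamc1 86.8% ± 9.77 of the gamma chain FPKM, and Lama5 and Lama4 50.2% ± 15.1 and 42.0% ± 15.3 of the alpha chain FPKM (SD, n = 11). Lama5 held 65.1% ± 11.1 of the alpha chain FPKM in DNBS_Vehicle and 42.9% ± 7.84 in Saline_Vehicle, and 58.7% ± 10.8 in DNBS_GR159897 and 37.0% ± 9.82 in Saline_GR159897 (SD, n = 3 each). Lama3 and Lamb3 encode chains of an epithelial laminin. In DNBS_GR159897 replicate 1, Lamb3 made up 46.1% of the beta chain FPKM, beside the high epithelial markers of that library.

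**Figure D1:**
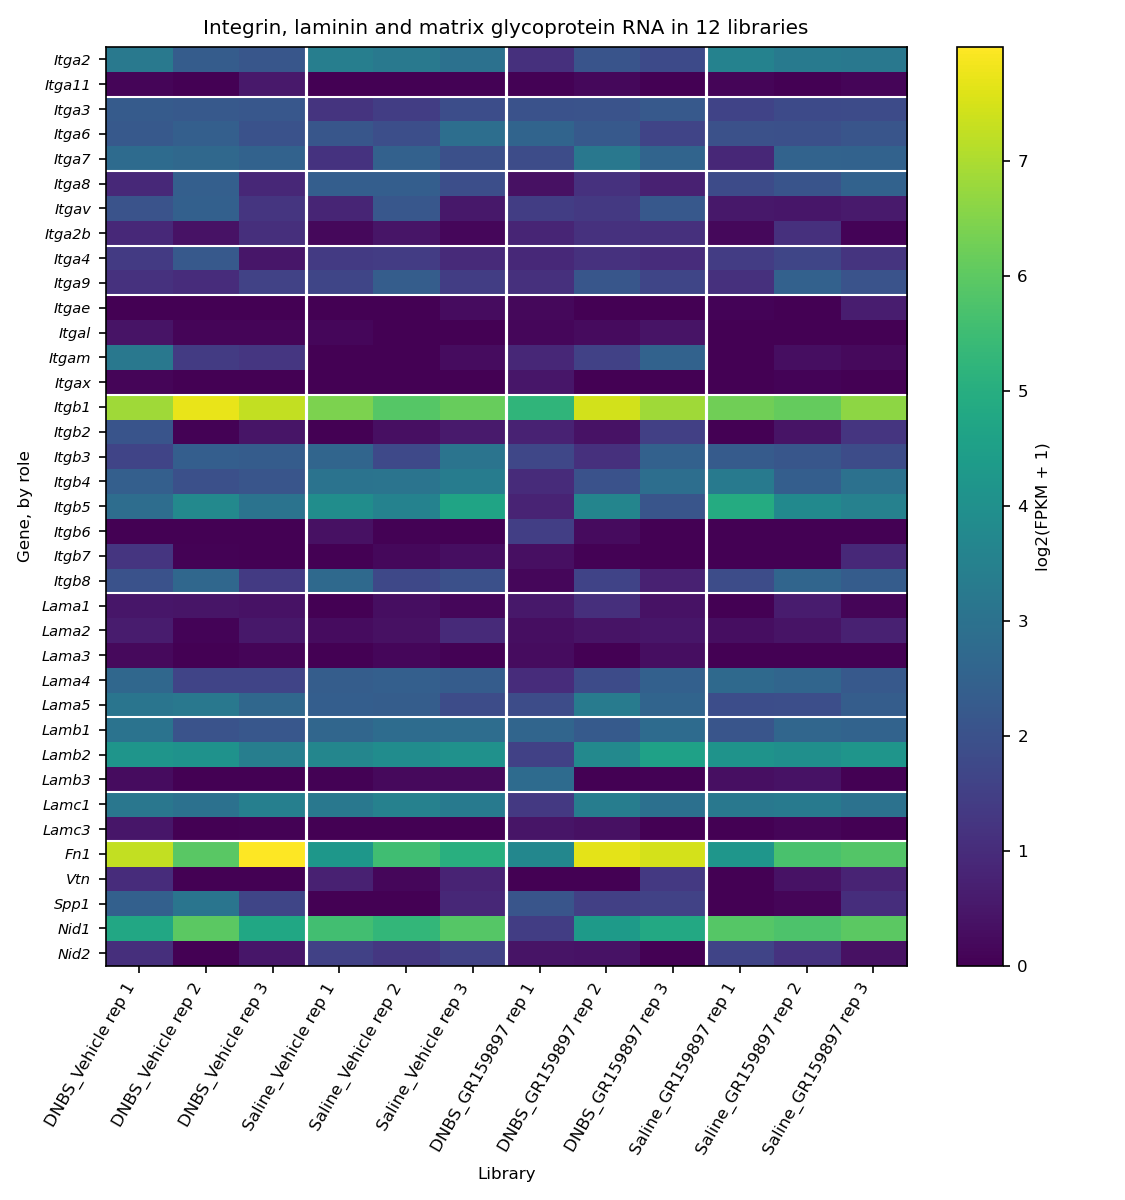
Level of 37 of the 38 genes (rows, by role) in the 12 libraries (columns, DNBS before saline within each drug arm) as log2(FPKM + 1). Itgb1, Fn1 and Nid1 have the highest levels, and DNBS_GR159897 replicate 1 is low for Nid1, Lamb2 and Lamc1 and high for Lamb3.

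The 12 genes that did not reach the filter were Itga11, Itgae, Itgal, Itgax, Itgb6, Itgb7, Lama1, Lama2, Lama3, Lamb3, Lamc3 and Vtn. Of these, 7 never reached 1 FPKM: Itga11, a collagen receptor of fibroblasts, the leukocyte chains Itgae, Itgal and Itgax, and Lama2, Lama3 and Lamc3. Lamb3 reached 6.00 FPKM and Itgb6, an epithelial partner of Itgav, 1.79 FPKM in DNBS_GR159897 replicate 1, and neither exceeded 0.3 FPKM in any other library. Itgb7, the lymphocyte partner of Itga4 and Itgae, reached 1.36 FPKM in DNBS_Vehicle replicate 1. Lama1 reached 1.09 FPKM in DNBS_GR159897 replicate 2, and Vtn, vitronectin, 1.49 FPKM in DNBS_GR159897 replicate 3 and 1.03 FPKM in DNBS_Vehicle replicate 1.

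The main question of the design is what DNBS does to these genes. A fold change below is a log2 difference of FPKM + 1, which understates changes of low genes, and is tested with limma with adjustment over all genes tested and a threshold of 0.05. Averaged over both drug arms, 4 of 26 genes passed, 15.4%, where 9.6% of all genes tested did. Spp1 and Itgam rose, 2 of 26, where 2.76% of all genes tested did, and Itga2 and Itga8 fell, 2 of 26, where 6.83% did. Spp1 and Itgam passed the filter through the DNBS libraries and Itga8 through the saline libraries, so the filter partly sets these counts. At an unadjusted p under 0.05 there were 15 of 26 genes, where 28.3% of all genes tested were: 8 higher, where 8.22% were, and 7 lower, where 20.0% were. Of the 26 genes, 12 had a positive difference, where 38.8% of all genes tested had one, and the median was -0.13, beside -0.18 over all genes tested. In a bulk precipitate, fewer cells of a type and less RNA per cell cannot be told apart. Tested markers of the tagged cells were lower on average: the same 6 enteric glial markers were tested, all 6 had a negative average difference with a median of -1.59, and 2 passed. Foxd3, which was not tested, had 53.8 FPKM in DNBS_Vehicle replicate 2, 19.7 FPKM in DNBS_GR159897 replicate 3 and 0 elsewhere. In the vehicle arm the 6 tested had a median of -0.61, and with limma 0 passed and 0 had an unadjusted p under 0.05. The summed FPKM of these 6 was 442 to 532 in DNBS_Vehicle and 463 to 739 in Saline_Vehicle, and 9.21 to 431 in DNBS_GR159897 and 623 to 816 in Saline_GR159897. Leaving DNBS_GR159897 replicate 1 out, all 6 were still negative in the average over both arms, the median was -0.99 and 1 passed. Their part in the calls on Itga2 and Itga8 was not tested.

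The separate arms gave no gene past the threshold. DNBS_Vehicle against Saline_Vehicle gave 0 of 26, where 0.321% of all genes tested passed with limma, and 6 at an unadjusted p under 0.05, where 12.6% did. DNBS_GR159897 against Saline_GR159897 gave 0 of 26, where 1.38% passed, and 9 at an unadjusted p under 0.05, where 22.7% did. In the vehicle arm, 7 of 26 genes were higher in all 3 DNBS libraries than in all 3 saline libraries, 26.9%, where 9.53% of all genes tested were. These were Itga3, Itga7, Itgam, Itgb1, Lama5, Fn1 and Spp1. Itgb4 and Nid2 were lower without overlap, 2 of 26, where 14.9% of all genes tested were. In the antagonist arm, 5 of 26 were higher without overlap, where 6.67% of all genes tested were, among them Itga3, Itgav, Itgam and Spp1. Itga2, Itga4, Itga8, Itgb8 and Nid1 were lower without overlap, 5 of 26, where 17.6% were. Itga3, Itgam and Spp1 were higher in all 6 DNBS libraries than in all 6 saline libraries, 3 of 26, where 1.74% of all genes tested were, and 0 of 26 were lower in all 6, where 4.29% were. Itgam reached 1 FPKM in DNBS libraries only. Like Spp1 and Itgav, it passed the filter through the group where it was high, and Itga8 and Nid2 passed through saline. The counts that hold these genes are thus partly set by the filter.

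**Figure D2:**
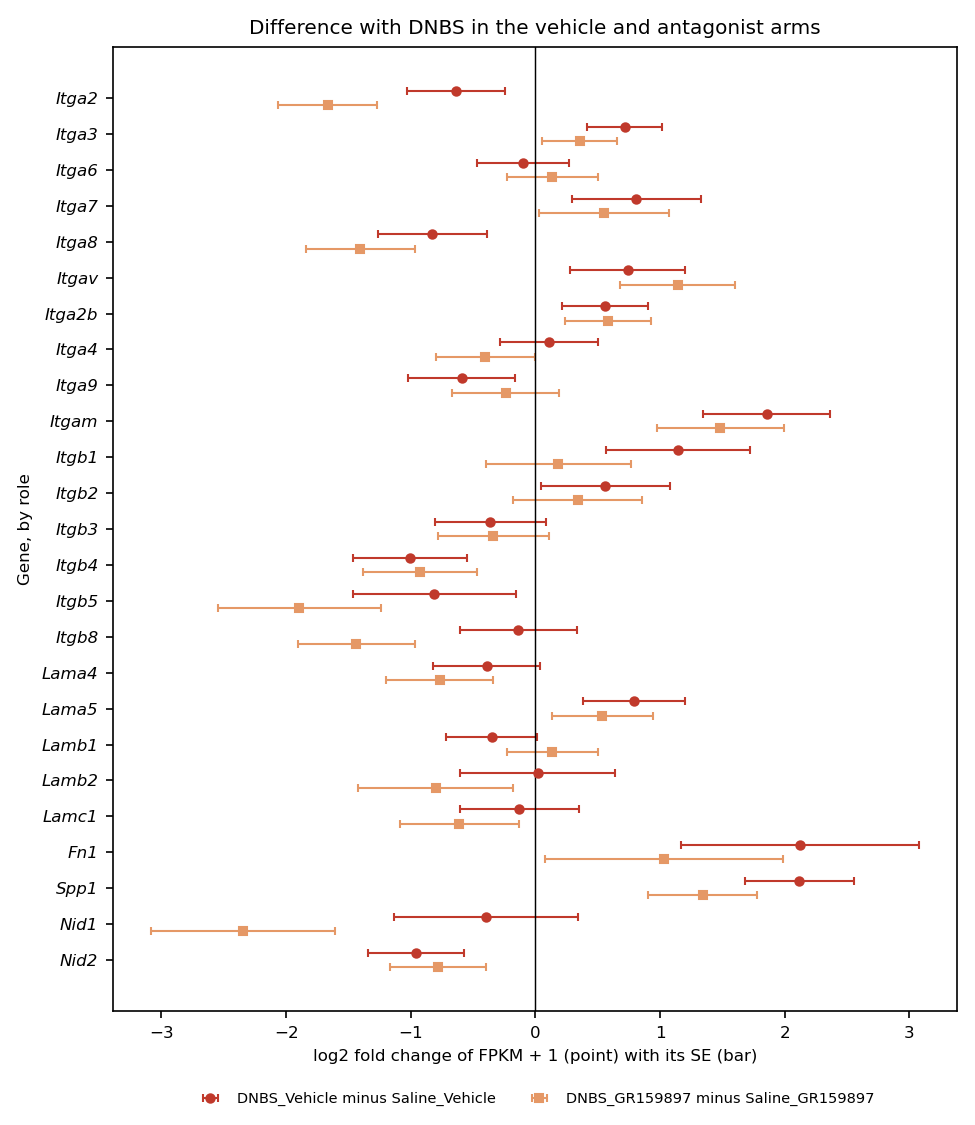
Log2 fold change of FPKM + 1 (x axis) of 25 of the 26 tested genes (y axis, by role), DNBS minus saline, in the vehicle arm (circles) and the antagonist arm (squares), with bars for the SE. Spp1, Itgam and Fn1 lie to the right of 0 in both arms, Itga2, Itga8, Itgb5 and Nid1 to the left in both, and Nid1, Itgb8 and Itga2 lie further left in the antagonist arm.

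Collagen receptors were represented by Itga2 (chr13:114833081-114932100, minus strand; GENCODE M21, GRCm38), which also serves platelets and epithelium as a collagen receptor. Itga2 had 8.33, 4.07 and 3.45 FPKM in the DNBS_Vehicle libraries, against 9.6, 8.4 and 6.94 FPKM in the Saline_Vehicle libraries, and 1.17, 3.26 and 2.44 FPKM in the DNBS_GR159897 libraries, against 10.7, 8.54 and 8.12 FPKM in the Saline_GR159897 libraries. It was lower in every DNBS_GR159897 library than in any Saline_GR159897 library, and in the vehicle arm DNBS_Vehicle replicate 1 lay among the saline values. Itga2 fell on average over both arms (log2 fold change -1.15 ± 0.28 SE; limma, adjusted p = 0.0267). The difference was -1.67 ± 0.39 SE in the antagonist arm (adjusted p = 0.0575) and -0.64 ± 0.39 SE in the vehicle arm (adjusted p = 0.547). The average was -1.02 without DNBS_GR159897 replicate 1 (adjusted p = 0.034). The call was lost without any of 6 libraries (DNBS_Vehicle replicate 3, all 3 Saline_Vehicle libraries, Saline_GR159897 replicates 1 and 3), with values of -1.21 to -1.05 and adjusted p of 0.0514 to 0.0668. With no filter on low values the call was lost as well (adjusted p = 0.0548), and it held in 12 of 19 alternatives. The merged Itga1 and Pelo locus, which holds another collagen receptor, had 29.8, 26.4 and 21.3 FPKM in the DNBS_Vehicle libraries, against 15.3, 18.6 and 12.3 FPKM in the Saline_Vehicle libraries, and 5.24, 26.6 and 17.3 FPKM in the DNBS_GR159897 libraries, against 17.9, 23.1 and 18.0 FPKM in the Saline_GR159897 libraries, and its average difference was 0.12 ± 0.36 SE (limma, adjusted p = 0.866).

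Of the laminin receptors Itga3, Itga6 and Itga7, none passed the threshold. Itga3, a receptor of epithelial and other laminins, had 3.88, 3.66 and 3.53 FPKM in the DNBS_Vehicle libraries, against 1.29, 1.76 and 2.68 FPKM in the Saline_Vehicle libraries, and 3.01, 3.14 and 3.68 FPKM in the DNBS_GR159897 libraries, against 2.04, 2.45 and 2.54 FPKM in the Saline_GR159897 libraries. All 6 DNBS libraries, between 3.01 and 3.88 FPKM, were above all 6 saline libraries, between 1.29 and 2.68 FPKM, and the average difference was 0.54 ± 0.21 SE (limma, adjusted p = 0.127). Itga7, the laminin receptor of muscle, had 6.00, 5.48 and 4.67 FPKM in the DNBS_Vehicle libraries, against 1.23, 4.57 and 2.84 FPKM in the Saline_Vehicle libraries, and 2.64, 8.12 and 4.95 FPKM in the DNBS_GR159897 libraries, against 0.87, 4.85 and 4.74 FPKM in the Saline_GR159897 libraries. The vehicle arm groups did not overlap for Itga7 (difference 0.81 ± 0.52 SE, adjusted p = 0.558) and the antagonist arm groups did. Itga6, which joins Itgb4 in hemidesmosomes, lay between 2.13 and 6.42 FPKM in all 12 libraries, with an average difference of 0.02 ± 0.26 SE (adjusted p = 0.974).

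Receptors of the arginine-glycine-aspartate motif went in different directions. Itga8 (chr2:12106632-12301922, minus strand; GENCODE M21, GRCm38), which binds nephronectin and fibronectin as a partner of Itgb1, had 0.89, 4.41 and 0.84 FPKM in the DNBS_Vehicle libraries, against 4.27, 4.27 and 2.77 FPKM in the Saline_Vehicle libraries, and 0.28, 1.19 and 0.66 FPKM in the DNBS_GR159897 libraries, against 2.58, 3.25 and 4.66 FPKM in the Saline_GR159897 libraries. DNBS_Vehicle replicate 2, at 4.41 FPKM, lay among the saline libraries, and the other 5 DNBS libraries, at 0.28 to 1.19 FPKM, lay below all saline libraries, at 2.58 to 4.66 FPKM. Itga8 fell on average (log2 fold change -1.11 ± 0.31 SE; limma, adjusted p = 0.0413). That call was the least stable of the 4: without DNBS_GR159897 replicate 1 the value was -1.02 (adjusted p = 0.0658), and it was lost in 10 of the 12 fits that leave out a library, DNBS_Vehicle replicate 2 and DNBS_GR159897 replicate 2 being the exceptions, with values of -1.19 to -0.98 and adjusted p of 0.0501 to 0.0907. With no filter on low values, with scaling to the same annotated sum and with a sex term the call was also lost (adjusted p of 0.0653 to 0.0873). It held in 5 of 18 alternatives. The antisense gene E030013I19Rik overlaps Itga8 exons, and FPKM values without strand cannot separate the pair. Smooth muscle, where Itga8 is known to be expressed, had marker sums of 303 to 6761 FPKM in the 6 DNBS libraries and 1736 to 4362 FPKM in the 6 saline libraries, with 0 of 8 markers past the threshold in the average with limma and 0 at an unadjusted p under 0.05. Their part in the Itga8 result was not tested.

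Itgav, a chain that joins several beta chains and binds fibronectin, vitronectin and latent TGF-beta, had 3.13, 4.5 and 1.35 FPKM in the DNBS_Vehicle libraries, against 0.77, 3.53 and 0.42 FPKM in the Saline_Vehicle libraries, and 1.74, 1.51 and 3.63 FPKM in the DNBS_GR159897 libraries, against 0.44, 0.39 and 0.48 FPKM in the Saline_GR159897 libraries. The antagonist arm groups did not overlap, in the vehicle arm Saline_Vehicle replicate 2 lay above 2 of the DNBS libraries, and the average difference was 0.94 ± 0.33 SE (limma, adjusted p = 0.0838). Itga2b, the platelet fibrinogen receptor chain, had 0.90, 0.32 and 1.13 FPKM in the DNBS_Vehicle libraries, against 0.12, 0.36 and 0.10 FPKM in the Saline_Vehicle libraries, and 0.79, 1.22 and 1.15 FPKM in the DNBS_GR159897 libraries, against 0.13, 1.15 and 0.05 FPKM in the Saline_GR159897 libraries. Its average difference was 0.57 ± 0.24 SE (adjusted p = 0.151), beside a platelet marker sum of 20.1 to 158 FPKM in the DNBS libraries and 1.64 to 8.84 FPKM in the saline libraries, most of it from Pf4, with Gp6 listed at 0 in 11 libraries. Gp1ba did not follow Pf4, with 0.04 to 0.60 FPKM in the DNBS libraries and 0 to 1.36 FPKM in the saline libraries. Ppbp was listed at 0 in every saline library and in replicate 3 of both DNBS groups. The part of platelets in the Itga2b result was not tested. The merged Itga5 and Mir6963 locus, which holds the main fibronectin receptor chain, had 51.4, 2.37 and 154 FPKM in the DNBS_Vehicle libraries, against 8.23, 3.43 and 9.79 FPKM in the Saline_Vehicle libraries, and 5.25, 106 and 21.4 FPKM in the DNBS_GR159897 libraries, against 4.94, 11.2 and 2.94 FPKM in the Saline_GR159897 libraries. Its values ranged widely within both DNBS groups, and the average difference was 1.94 ± 0.89 SE (limma, adjusted p = 0.176).

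Itga4 and Itga9 bind VCAM1, osteopontin and tenascin C. Itga9 had 1.18, 1.00 and 2.00 FPKM in the DNBS_Vehicle libraries, against 2.19, 4.16 and 1.72 FPKM in the Saline_Vehicle libraries, and 1.17, 3.37 and 2.2 FPKM in the DNBS_GR159897 libraries, against 1.14, 4.56 and 3.17 FPKM in the Saline_GR159897 libraries, and these groups overlapped in both arms. Itga4, also a homing receptor of lymphocytes, lay between 0.41 and 3.66 FPKM, with an average difference of -0.15 ± 0.28 SE (limma, adjusted p = 0.771).

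Leukocyte integrins were represented by Itgam (chr7:128062640-128118491, plus strand; GENCODE M21, GRCm38), the alpha chain of the complement receptor of macrophages and neutrophils. Itgam had 8.17, 1.63 and 1.39 FPKM in the DNBS_Vehicle libraries, against 0, 0 and 0.21 FPKM in the Saline_Vehicle libraries, and 0.85, 1.95 and 4.67 FPKM in the DNBS_GR159897 libraries, against 0, 0.23 and 0.15 FPKM in the Saline_GR159897 libraries. Every DNBS library had at least 0.85 FPKM and every saline library at most 0.23 FPKM. Itgam rose on average (log2 fold change 1.67 ± 0.36 SE; limma, adjusted p = 0.0176), and the differences were 1.86 ± 0.51 SE in the vehicle arm (adjusted p = 0.167) and 1.48 ± 0.51 SE in the antagonist arm (adjusted p = 0.126). Without DNBS_GR159897 replicate 1 the average was 1.86 (adjusted p = 0.0105), and the call held in all 18 alternatives in which the gene was tested. The highest adjusted p among these was 0.0499, just under the threshold, in a fit that leaves out a library. Itgb2, the beta chain that all leukocyte alpha chains named here except Itgae join, had 3.2, 0.04 and 0.36 FPKM in the DNBS_Vehicle libraries, against 0, 0.25 and 0.48 FPKM in the Saline_Vehicle libraries, and 0.70, 0.32 and 1.87 FPKM in the DNBS_GR159897 libraries, against 0, 0.35 and 1.36 FPKM in the Saline_GR159897 libraries. Itgb2 was highest where Itgam was highest, in DNBS_Vehicle replicate 1 and DNBS_GR159897 replicate 3, was at 0.04 FPKM in DNBS_Vehicle replicate 2, and had an average difference of 0.45 ± 0.37 SE (adjusted p = 0.45). The Itgam locus also takes in Gm49368, a gene on the same strand, whose fragments are in the same value.

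Markers of leukocytes moved with Itgam. Of 8 general leukocyte markers, 7 were tested, all 7 had a positive average difference and 4 passed the threshold. Of all genes tested, 38.8% had a positive average difference and 2.76% rose past the threshold. Cd53 and Lcp1, which passed, reached 1 FPKM in DNBS libraries only, so the filter partly sets these counts. The summed FPKM of the 8 markers was 46.7 to 180 in DNBS_Vehicle and 12.6 to 21.1 in Saline_Vehicle, and 51.0 to 108 in DNBS_GR159897 and 4.69 to 21.2 in Saline_GR159897. Among them, Ptprc, the pan-leukocyte phosphatase, was at most 1.86 FPKM in any library and was listed at 0 in Saline_GR159897 replicate 1, and Cd53 and Rac2 were listed at 0 in some saline libraries and in no DNBS library. Rac2 was at 1.61 FPKM in Saline_GR159897 replicate 3, above every DNBS library but DNBS_Vehicle replicate 1. Of 10 macrophage markers, 10 had a positive average difference and 5 passed, with sums of 25.2 to 43.9 FPKM in DNBS_Vehicle and 10.04 to 18.2 FPKM in Saline_Vehicle, and 29.3 to 62.9 FPKM in DNBS_GR159897 and 6.71 to 17.6 FPKM in Saline_GR159897. Neutrophil markers summed to 10.04 to 577 FPKM in DNBS_Vehicle and 0.37 to 2.03 FPKM in Saline_Vehicle, and to 47.7 to 251 FPKM in DNBS_GR159897 and 0.46 to 12.2 FPKM in Saline_GR159897, with 3 of 5 tested past the threshold. Retnlg, Mmp8 and Mmp9 among these 5, and the macrophage marker Cd163, reached 1 FPKM in DNBS libraries only. The filter thus partly sets these counts as well. The part of leukocytes in the Itgam and Spp1 results was not tested.

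**Figure D3:**
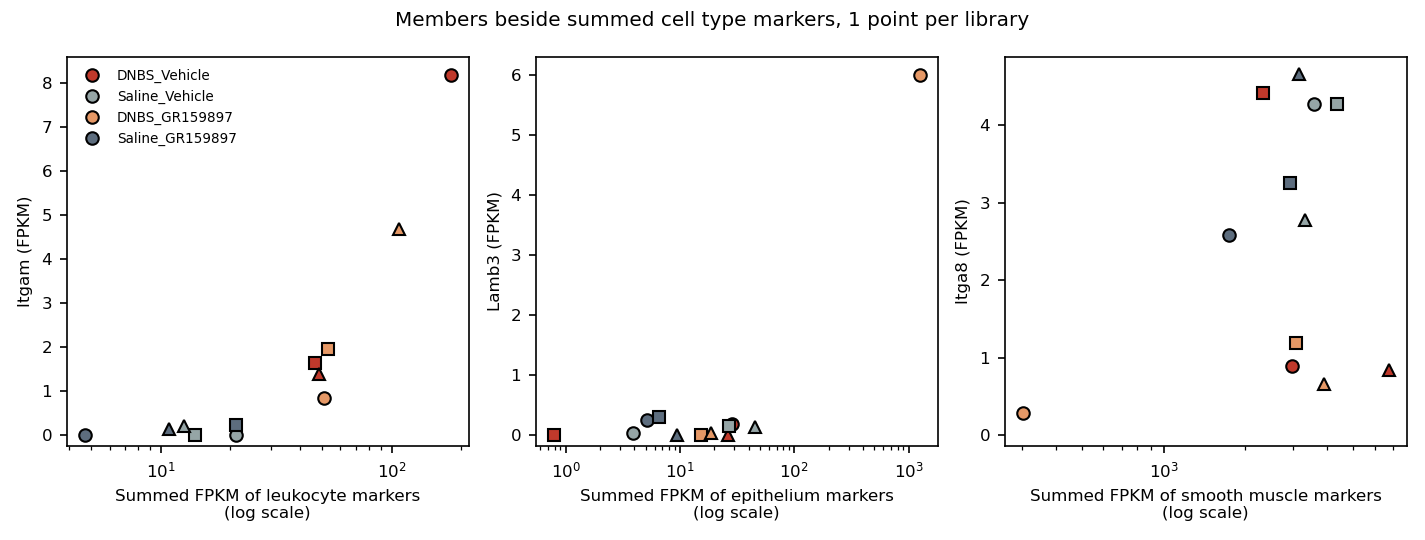
FPKM of Itgam, Lamb3 and Itga8 (y axes) against the summed FPKM of leukocyte, epithelial and smooth muscle markers (x axes, log scale), with 1 point per library coloured by group (circle, square and triangle for replicates 1, 2 and 3). The 6 DNBS libraries stand to the right of and above the saline libraries in the Itgam panel, DNBS_GR159897 replicate 1 stands alone in the Lamb3 panel, and the lowest Itga8 is at the lowest smooth muscle sum, in DNBS_GR159897 replicate 1.

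None of the 6 integrin beta chains tested passed the threshold. Itgb1 had an average difference of 0.67 ± 0.41 SE (limma, adjusted p = 0.311) and of 1.15 ± 0.58 SE in the vehicle arm, where the groups did not overlap (adjusted p = 0.441). The Itgb1 average was 0.98 and passed without DNBS_GR159897 replicate 1 (adjusted p = 0.034). Itgb4, the laminin receptor chain of hemidesmosomes and of Schwann cells, had 4.3, 2.85 and 3.34 FPKM in the DNBS_Vehicle libraries, against 7.31, 7.39 and 9.27 FPKM in the Saline_Vehicle libraries, and 0.96, 3.04 and 6.4 FPKM in the DNBS_GR159897 libraries, against 8.6, 4.26 and 6.98 FPKM in the Saline_GR159897 libraries. The vehicle arm groups did not overlap for Itgb4, and the average difference was -0.97 ± 0.32 SE (adjusted p = 0.0766). Itgb8, a partner of Itgav that activates latent TGF-beta, had 3.02, 5.3 and 1.57 FPKM in the DNBS_Vehicle libraries, against 5.71, 2.33 and 2.88 FPKM in the Saline_Vehicle libraries, and 0.11, 2.06 and 0.66 FPKM in the DNBS_GR159897 libraries, against 2.65, 5.12 and 4.02 FPKM in the Saline_GR159897 libraries. Itgb8 was lower without overlap in the antagonist arm (-1.44 ± 0.47 SE, adjusted p = 0.11) and overlapped in the vehicle arm (-0.14 ± 0.47 SE, adjusted p = 0.944). Itgb5, a partner of Itgav that binds vitronectin, lay between 0.73 and 12.7 FPKM in the 6 DNBS libraries and between 10.3 and 29.4 FPKM in the 6 saline libraries, with an average difference of -1.35 ± 0.46 SE (adjusted p = 0.0805). Itgb3, the platelet and vessel partner of Itga2b and Itgav, lay between 1.16 and 4.60 FPKM in the DNBS libraries and between 2.41 and 7.35 FPKM in the saline libraries (-0.35 ± 0.31 SE, adjusted p = 0.498).

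Laminin chains gave no call. Lama5, an alpha chain of many adult basement membranes, had 7.64, 8.15 and 5.33 FPKM in the DNBS_Vehicle libraries, against 4.22, 4.12 and 2.61 FPKM in the Saline_Vehicle libraries, and 2.64, 8.97 and 4.99 FPKM in the DNBS_GR159897 libraries, against 2.68, 2.75 and 4.14 FPKM in the Saline_GR159897 libraries. The vehicle arm groups did not overlap, and the average difference was 0.67 ± 0.29 SE (limma, adjusted p = 0.152). Lama4, an alpha chain of vessels and muscle, lay between 1.00 and 5.65 FPKM, with an average difference of -0.58 ± 0.30 SE (adjusted p = 0.229). Lamb1 had 7.23, 3.15 and 3.53 FPKM in the DNBS_Vehicle libraries, against 5.27, 6.07 and 6.24 FPKM in the Saline_Vehicle libraries, and 5.13, 3.82 and 5.96 FPKM in the DNBS_GR159897 libraries, against 3.3, 5.17 and 4.85 FPKM in the Saline_GR159897 libraries. Lamb2, a beta chain of muscle and nerve basement membranes, had 16.8, 15.8 and 9.68 FPKM in the DNBS_Vehicle libraries, against 11.7, 13.8 and 15.4 FPKM in the Saline_Vehicle libraries, and 1.9, 12.5 and 22.6 FPKM in the DNBS_GR159897 libraries, against 16.0, 14.8 and 17.1 FPKM in the Saline_GR159897 libraries. The groups overlapped in both arms for both beta chains, and Lamb2 was at 1.90 FPKM in DNBS_GR159897 replicate 1, against at least 9.68 FPKM in the other 11 libraries.

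Lamc1, the gamma chain of most laminins, had 8.07, 6.94 and 9.9 FPKM in the DNBS_Vehicle libraries, against 8.27, 10.3 and 8.77 FPKM in the Saline_Vehicle libraries, and 1.5, 9.52 and 6.77 FPKM in the DNBS_GR159897 libraries, against 8.24, 8.72 and 7.12 FPKM in the Saline_GR159897 libraries. In the other 11 libraries it kept to a narrow range of 6.77 to 10.35 FPKM, above the value of DNBS_GR159897 replicate 1.

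Among the matrix glycoproteins, Spp1 (chr5:104435118-104441050, plus strand; GENCODE M21, GRCm38), which encodes osteopontin, a secreted ligand of integrins made by activated macrophages and other cells, had 4.43, 7.61 and 2.21 FPKM in the DNBS_Vehicle libraries, against 0, 0 and 0.84 FPKM in the Saline_Vehicle libraries, and 3.31, 1.84 and 1.96 FPKM in the DNBS_GR159897 libraries, against 0, 0.07 and 1.08 FPKM in the Saline_GR159897 libraries. Every DNBS library had at least 1.84 FPKM and every saline library at most 1.08 FPKM, and Spp1 was listed at 0 in 3 saline libraries. Spp1 rose on average (log2 fold change 1.73 ± 0.31 SE; limma, adjusted p = 0.00929). The difference was 2.12 ± 0.44 SE in the vehicle arm (adjusted p = 0.074) and 1.34 ± 0.44 SE in the antagonist arm (adjusted p = 0.111). Without DNBS_GR159897 replicate 1 the average was 1.63 (adjusted p = 0.0122), the vehicle arm difference passed (adjusted p = 0.04), and the averaged call held in all 18 alternatives in which the gene was tested. Gm42793, a gene model on the same strand, overlaps Spp1 exons.

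Fn1 (chr1:71585520-71653200, minus strand; GENCODE M21, GRCm38), fibronectin, had 151, 61.3 and 254 FPKM in the DNBS_Vehicle libraries, against 17.9, 45.9 and 32.0 FPKM in the Saline_Vehicle libraries, and 12.1, 203 and 176 FPKM in the DNBS_GR159897 libraries, against 17.3, 51.3 and 56.6 FPKM in the Saline_GR159897 libraries. Its mean was 155 ± 96.4 FPKM in DNBS_Vehicle and 31.9 ± 14.0 FPKM in Saline_Vehicle, and 130.5 ± 103 FPKM in DNBS_GR159897 and 41.7 ± 21.3 FPKM in Saline_GR159897 (SD, n = 3 each). In 5 of 6 DNBS libraries Fn1 was above all 6 saline libraries, and in DNBS_GR159897 replicate 1, at 12.1 FPKM, it was below all of them. The average difference was 1.58 ± 0.67 SE (limma, adjusted p = 0.149), and without that library it was 2.22 and passed (adjusted p = 0.0112). Fn1 also shares exon sequence with an antisense gene, Apol7d.

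Nidogens link laminins to type IV collagen. Nid1 had 26.9, 62.7 and 26.3 FPKM in the DNBS_Vehicle libraries, against 46.4, 38.6 and 58.0 FPKM in the Saline_Vehicle libraries, and 1.71, 19.4 and 27.4 FPKM in the DNBS_GR159897 libraries, against 58.4, 53.4 and 62.7 FPKM in the Saline_GR159897 libraries. Nid1 was lower without overlap in the antagonist arm, where the difference was -2.34 ± 0.74 SE (limma, adjusted p = 0.104), and overlapped in the vehicle arm, where it was -0.40 ± 0.74 SE (adjusted p = 0.886). Without DNBS_GR159897 replicate 1, where Nid1 was at 1.71 FPKM, the antagonist arm difference was -1.29 (adjusted p = 0.162). Nid2 had 1.1, 0 and 0.40 FPKM in the DNBS_Vehicle libraries, against 1.93, 1.45 and 1.99 FPKM in the Saline_Vehicle libraries, and 0.35, 0.32 and 0 FPKM in the DNBS_GR159897 libraries, against 2.13, 1.24 and 0.28 FPKM in the Saline_GR159897 libraries. Nid2 was lower without overlap in the vehicle arm, and its average difference was -0.87 ± 0.27 SE (adjusted p = 0.0627). Both share exon sequence with a gene on the opposite strand.

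**Figure D4:**
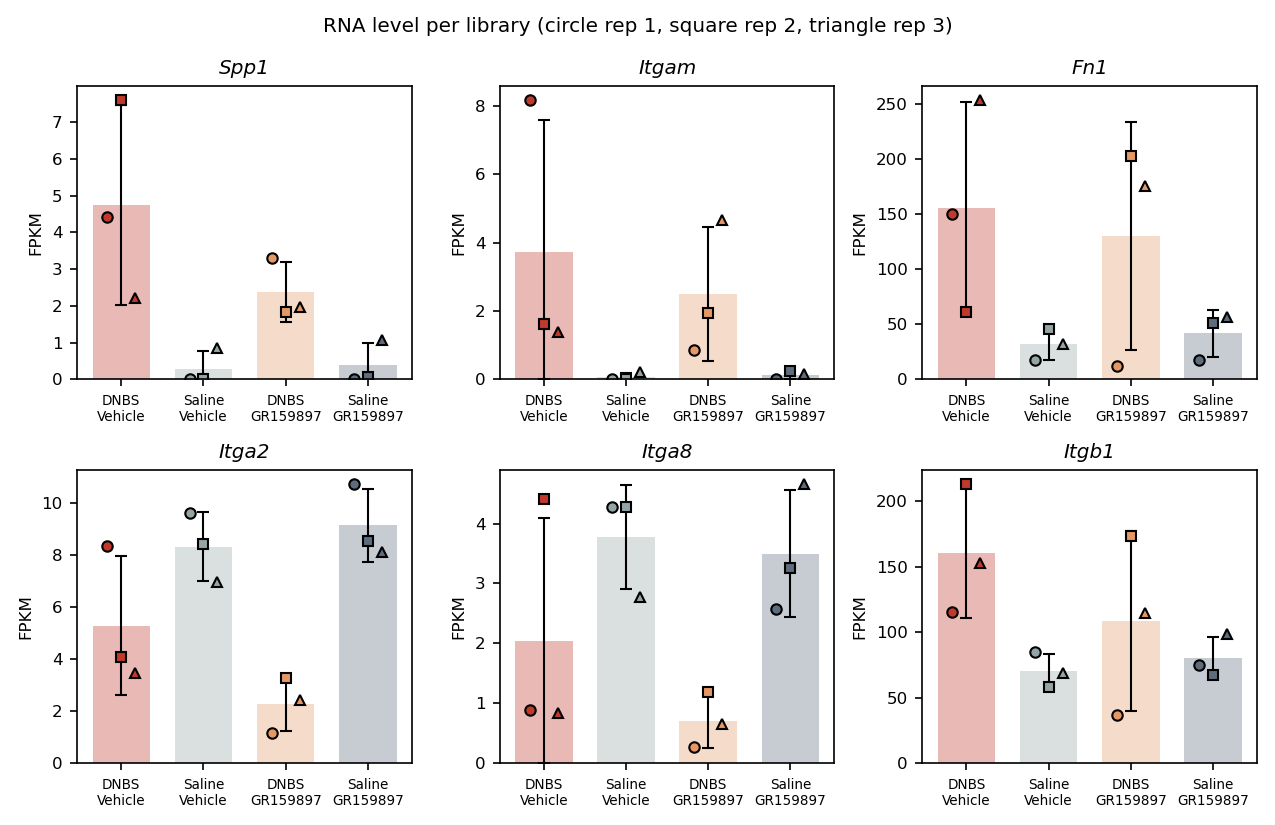
FPKM (y axes, from 0) of Spp1, Itgam, Fn1, Itga2, Itga8 and Itgb1 in the 4 groups (x axes), with bars for the mean, whiskers for the SD (n = 3, not drawn below 0) and points for the libraries. Spp1 and Itgam are separated between DNBS and saline in every library, and Itga8 has 1 DNBS_Vehicle library among the saline levels. DNBS_GR159897 replicate 1 (circle) is the lowest DNBS library for Itgam, Fn1, Itga2, Itga8 and Itgb1.

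The promoters of Itgam and Spp1 are shown because these genes rose and all 6 DNBS libraries were above all 6 saline libraries. The sequences are from RefSeq (GRCm38.p6), 5′ to 3′, from 250 bases before to 50 bases after the listed start, and 23 of the 38 genes matched the table. Capitals mark GAGGAA on either strand, the core that PU.1, a transcription factor of myeloid cells, is known to bind. For Spp1 the more upstream of its listed starts was used. The Itgam window is chr7:128062390-128062689 and the Spp1 window is chr5:104434861-104435160, both on the plus strand.
Itgam: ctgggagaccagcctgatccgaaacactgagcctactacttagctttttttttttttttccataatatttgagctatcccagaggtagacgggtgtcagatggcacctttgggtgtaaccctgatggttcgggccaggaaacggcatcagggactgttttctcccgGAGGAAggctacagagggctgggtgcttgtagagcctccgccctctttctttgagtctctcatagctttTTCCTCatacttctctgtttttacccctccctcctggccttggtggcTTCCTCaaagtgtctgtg
Spp1: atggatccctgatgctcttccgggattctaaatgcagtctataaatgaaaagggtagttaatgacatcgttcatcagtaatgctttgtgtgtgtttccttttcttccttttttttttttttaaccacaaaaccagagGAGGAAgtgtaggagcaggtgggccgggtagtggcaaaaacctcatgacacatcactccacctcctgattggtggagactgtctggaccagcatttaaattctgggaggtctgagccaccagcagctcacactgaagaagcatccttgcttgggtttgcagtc
The Itgam window holds 3 matches and the Spp1 window holds 1, and 28.3% of 32851 promoter windows of this length hold at least 1. TGANTCA, the core bound by AP-1, was found in neither window and in 7.81% of all. A match describes letters and is not a test of binding.

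The antagonist made no difference that passed the threshold. DNBS_GR159897 against DNBS_Vehicle gave 0 of 26 genes, where 0.0% of all genes tested passed with limma, and 3 at an unadjusted p under 0.05, where 8.13% did. These 3 were lower with the antagonist, where 5.69% of all genes tested were: Itgb8 (-1.18 ± 0.47 SE), Itga2 (-0.91 ± 0.39 SE) and Nid1 (-1.65 ± 0.74 SE), each with an adjusted p of 0.607. Itga2 was lower without overlap, 1 of 26, where 6.89% of all genes tested were. Of the 26 genes 21 had a negative difference and 5 a positive one, where 37.2% of all genes tested had a positive one, with a median of -0.32 beside -0.21 over all genes tested. With each library scaled to the same annotated sum, 15 of 26 were negative and the medians were -0.01 for these genes and 0.11 for all genes. Without DNBS_GR159897 replicate 1, 15 were negative and 11 positive, and the median was -0.06 both for these genes and for all genes. In that fit the differences were -0.84 for Itgb8, -0.64 for Itga2 and -0.60 for Nid1 (adjusted p = 1 each).

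After the saline enema the antagonist gave 0 of 26 genes (Saline_GR159897 against Saline_Vehicle), where 0.0% of all genes tested passed with limma, and 0 at an unadjusted p under 0.05, where 1.7% did. Lamb1 was lower without overlap, 1 of 26, where 4.18% of all genes tested were, with a difference of -0.35 ± 0.36 SE (adjusted p = 1). The interaction, which asks whether the DNBS difference depends on the antagonist, gave 0 of 26 genes, where 0.0% of all genes tested passed, and 0 at an unadjusted p under 0.05, where 3.58% did. Its largest negative values in these genes were -1.95 ± 1.04 SE for Nid1 and -1.30 ± 0.66 SE for Itgb8 (adjusted p = 0.957 each), and without DNBS_GR159897 replicate 1 they were -0.90 and -0.96 (adjusted p = 1 each). The difference between the arms thus did not pass for any of the 26 genes, which does not show that DNBS acted alike in both.

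Scaling bears on the direction counts. The scaling to the same annotated sum gave a median over all genes of -0.03 in place of -0.18 in the DNBS average, and of 0.04 in place of -0.27 in the antagonist arm. Of all genes called in the average, 353 were higher and 873 lower (28.8% higher), against 404 and 612 (39.8%) when scaled. In the antagonist arm 49 were higher and 127 lower (27.8% higher), against 50 and 41 (54.9%) when scaled. Spp1, Itgam and Itga2 passed in the average under this scaling, and Itga8 did not (-1.01, adjusted p = 0.0832).

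Inside the cell, integrins connect to actin through adaptors and kinases, and 28 of 32 listed were tested. This list was chosen with earlier results of these data known, so its shares beside all genes are only descriptive. In the DNBS average 2 of 28 rose, where 2.76% of all genes tested did, 2 of 28 fell, where 6.83% did, and the median was -0.21, beside -0.18 over all genes. Vasp, which promotes actin assembly at adhesions, had 12.1, 7.77 and 14.9 FPKM in the DNBS_Vehicle libraries, against 3.01, 8.95 and 4.23 FPKM in the Saline_Vehicle libraries, and 39.9, 13.1 and 19.5 FPKM in the DNBS_GR159897 libraries, against 5.48, 7.75 and 8.09 FPKM in the Saline_GR159897 libraries. Vasp rose by 1.27 ± 0.35 SE on the log2 scale (limma, adjusted p = 0.039), and its highest level was in DNBS_GR159897 replicate 1. Ptk2b, an adhesion kinase, rose by 0.94 ± 0.26 SE (adjusted p = 0.0423). Ptk2b reached 1 FPKM in DNBS libraries only, so the filter partly sets the count of adaptors that rose. Lims2 and Rsu1, of the complex around integrin-linked kinase, had differences of -1.91 ± 0.55 SE (adjusted p = 0.0485) and -1.35 ± 0.38 SE (adjusted p = 0.0452) and so fell. These calls were near the threshold: leaving out 1 library gave between 0 and 5 adaptors, and 0 without DNBS_Vehicle replicate 1, Saline_Vehicle replicates 1 or 3, or Saline_GR159897 replicates 1 or 3, 1 without DNBS_Vehicle replicates 2 or 3 or Saline_Vehicle replicate 2, and 2 without DNBS_GR159897 replicate 1. Those 2 were Vasp (1.06, adjusted p = 0.0485) and Actn1 (1.98, adjusted p = 0.0275), while Lims2, Ptk2b and Rsu1 were lost (adjusted p of 0.0523, 0.0659 and 0.0692) and the median was 0.10. In the vehicle arm 0 of 28 passed with limma and 3 had an unadjusted p under 0.05, and the smallest p-values were those of Actn1, an actin crosslinker (2.16 ± 0.75 SE, adjusted p = 0.257), Tns3, Ptk2b, Rsu1, Lims1 and Lims2.

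Other basement membrane genes and laminin receptors had a median of -0.86 in the average over 18 tested of 26 listed, beside -0.18 over all genes. Of the 18, 1 rose, where 2.76% of all genes tested did, and 4 fell, where 6.83% did. The choice of this list, too, was made with earlier results known. Col7a1, the 1 that rose, reached 1 FPKM in DNBS libraries only, so the filter partly sets that count. Sparc, a collagen-binding matrix protein, had 1077, 314 and 1116 FPKM in the DNBS_Vehicle libraries, against 3368, 2924 and 4270.0 FPKM in the Saline_Vehicle libraries, and 40.2, 327 and 811 FPKM in the DNBS_GR159897 libraries, against 4654, 1093 and 2832 FPKM in the Saline_GR159897 libraries. Sparc had an average difference of -2.86 ± 0.72 SE (limma, adjusted p = 0.03). Sgce, a sarcoglycan of the laminin receptor complex, Bcam, a receptor of laminins that hold Lama5, and Col15a1 fell as well, with -1.98 ± 0.44 SE (adjusted p = 0.0212), -1.49 ± 0.43 SE (adjusted p = 0.0469) and -0.94 ± 0.26 SE (adjusted p = 0.0398). Col7a1, the collagen of epithelial anchoring fibrils, rose by 1.05 ± 0.26 SE (adjusted p = 0.0288). Of the 9 epithelial markers tested, all 9 had a positive average difference with DNBS_GR159897 replicate 1 and 4 without it, and 0 passed with limma or had an unadjusted p under 0.05 in either fit. Col7a1 was at 1.02 in the average without that library (adjusted p = 0.042) and at 0.55 in the vehicle arm. Its averaged call held in 11 of 18 alternatives. The part of epithelial cells in the Col7a1 result was not tested. Leaving out 1 library gave between 0 and 7 of these genes: 0 without Saline_Vehicle replicate 3 or Saline_GR159897 replicate 1, 1 without Saline_Vehicle replicate 1 or Saline_GR159897 replicate 3, 2 without DNBS_Vehicle replicates 1 or 3 or Saline_Vehicle replicate 2, and, for DNBS_GR159897, 6 without replicate 1 and 3 without replicate 2. The 6 were 3 that rose, Col7a1, Col4a1 (1.34, adjusted p = 0.0236) and Col4a2 (1.26, adjusted p = 0.0125), and 3 that fell, Bcam, Sgce and Sparc, while Col15a1 was lost (adjusted p = 0.0589). In the vehicle arm 0 of 18 passed with limma and 5 had an unadjusted p under 0.05, and the type IV collagen chains had differences of 1.65 ± 0.73 SE for Col4a1 (adjusted p = 0.369) and 1.22 ± 0.74 SE for Col4a2 (adjusted p = 0.54), beside -1.31 ± 0.38 SE for Sgca (adjusted p = 0.19).

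Of other integrin ligands and fibronectin assembly genes, 22 of 35 listed were tested, and in the average 3 of 22 rose, where 2.76% of all genes tested did, and 2 of 22 fell, where 6.83% did. Their median was 0.20, beside -0.18 over all genes. Because this list was chosen with earlier results of these data known, these shares only describe it. Adam8 reached 1 FPKM in DNBS libraries only and Egfl6 in saline libraries only, so the filter partly sets these counts. Thbs1, thrombospondin, had 38.3, 32.5 and 23.9 FPKM in the DNBS_Vehicle libraries, against 0.50, 1.92 and 1.39 FPKM in the Saline_Vehicle libraries, and 3.95, 30.0 and 24.6 FPKM in the DNBS_GR159897 libraries, against 0.92, 2.4 and 1.59 FPKM in the Saline_GR159897 libraries. Every DNBS library was above every saline library, and Thbs1 rose by 3.25 ± 0.43 SE on the log2 scale (limma, adjusted p = 0.00239) and in the vehicle arm by 3.87 ± 0.60 SE (adjusted p = 0.0209). Thbs1 was the call of the vehicle arm in the 3 lists of associated genes, and without DNBS_GR159897 replicate 1 Tnc (2.90, adjusted p = 0.00734) and Sdc4, a syndecan that assists fibronectin binding (1.83, adjusted p = 0.0228), passed there as well. Tnc, tenascin C, a ligand of Itga9, had 38.8, 38.0 and 70.0 FPKM in the DNBS_Vehicle libraries, against 3.54, 8.08 and 5.42 FPKM in the Saline_Vehicle libraries, and 6.08, 33.1 and 42.3 FPKM in the DNBS_GR159897 libraries, against 3.79, 7.91 and 7.34 FPKM in the Saline_GR159897 libraries. Tnc rose by 2.26 ± 0.45 SE (adjusted p = 0.0127), and in the vehicle arm it passed with each library scaled to the same annotated sum (2.87, adjusted p = 0.0358). Adam8, a leukocyte metalloprotease with a disintegrin domain, rose by 1.51 ± 0.28 SE (adjusted p = 0.0101), with at least 0.64 FPKM in every DNBS library and at most 0.23 FPKM in every saline library. Edil3 and Egfl6, secreted ligands of integrins, fell, with -1.5 ± 0.33 SE (adjusted p = 0.0209) and -1.34 ± 0.29 SE (adjusted p = 0.0165). Egfl6 was listed at 0 in DNBS_Vehicle replicate 2 and in every DNBS_GR159897 library, which is not read as absence. Leaving out 1 library gave between 3 and 7 calls in this list, 3 without Saline_Vehicle replicate 3 and 7 without DNBS_GR159897 replicate 1, where Sdc4 and Tgfbi, a matrix ligand of integrins, were added (1.62, adjusted p = 0.00379, and 2.16, adjusted p = 0.00933). In the average, Thbs1, Tnc and Adam8 passed in every alternative in which they were tested, and the vehicle arm call of Thbs1 was lost in 5 fits without a library of that arm, all but the one without DNBS_Vehicle replicate 3 (adjusted p of 0.0583 to 0.122). That vehicle arm call was also lost with no filter on low values (adjusted p = 0.0814). Ctgf had a difference of -2.29 in the vehicle arm (adjusted p = 0.412).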

How the data were processed

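RNA bound to tagged ribosomes was amplified with SMART-seq v4 from 1 ng and sequenced in pairs, per the labels' protocols. Cutadapt 1.10, FastQC 0.10.1, HISAT2 2.0 and StringTie 1.3 are named in the submitters' processing notes, and no build of the genome is named there. The authors deposited FPKM with 2 decimals for 99547 loci in 12 libraries. FPKM are not counts and the low values show no steps of whole reads, so depth is unknown. A listed 0 can be a failed estimate and is not read as absence. From the 24432 annotated loci, 24394 symbols were kept.

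The log2(FPKM + 1) values of all 12 libraries were fitted with limma 3.58.1 in R 4.3.3, with 1 mean per group, a trended and robust spread, and 8 residual degrees of freedom. Genes had to reach 1 FPKM in 3 libraries, and Benjamini-Hochberg adjustment ran over all genes tested. Gfap is blank in Saline_Vehicle, which leaves 12777 genes in comparisons with that group. The DNBS average is the mean of both arms and shares their libraries. The fit was tested on simulated data.

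Values in every library are given for tested members past the threshold in any comparison, among the 3 smallest p-values of a direction in a comparison of 2 groups or in the average, or most abundant in their role. Other members are given by ranges, and 1 tested gene is not reported here beyond the counts. Sdc4 and Tgfbi were named after their values were seen. Associated genes are named when past the threshold or among the 3 smallest p-values of a direction in the vehicle arm. The members and lists were chosen with earlier results of these data known. Alternatives were the pseudocount, the filters, scaling, library weights, a sex term, a replicate block and leaving out each library. Coordinates and exon overlaps come from GENCODE M21 (GRCm38) and were used only to place named genes.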

Additional observations from a re-analysis of the deposited data

Results flagged for a closer look

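Some loci that carry the names of these genes lie outside the comparisons because they hold no annotated transcript or merge several genes. Of 218 such loci without an annotated transcript, under 27 gene names, 14 reached 10 FPKM in some library, a floor chosen after the values were seen. In DNBS_GR159897 replicate 1, 8 of the 14 had their highest value: Lamb3 (16.83, 13.51 and 12.63 FPKM), Lama2 (16.54 FPKM), Itgb6 (16.02 and 12.96 FPKM) and Lama3 (12.36 and 10.53 FPKM). Of the other 6, the Itga5 locus reached 161.83 FPKM and the Lamc1 loci 11.21 and 11.08 FPKM in DNBS_GR159897 replicate 2, the Nid1 locus 12.18 FPKM in DNBS_GR159897 replicate 3, and the Itga3 and Itgav loci 15.46 and 14.41 FPKM in DNBS_Vehicle replicate 2. The highest values of the merged loci were 29.77 FPKM for Itga1 with Pelo, in DNBS_Vehicle replicate 1, and 154.16 FPKM for Itga5 with Mir6963, in DNBS_Vehicle replicate 3. No group had the 4 libraries needed to look for a single library far from its group.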

How the results depend on the processing

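Of 678 recomputed fold changes of the integrin, laminin and glycoprotein genes, 639 kept their direction and side of the threshold, 20 lost the call, 17 gained it and 2 changed sign. Of 598 of the associated genes, 481 kept both, 111 lost the call and 6 gained it. Those that changed sign were Itga2b in Saline_GR159897 against Saline_Vehicle, with -0.12 to 0.39 over the fits that leave out a library (-0.12 without Saline_GR159897 replicate 2), and Itgb1 in DNBS_GR159897 against Saline_GR159897, with -0.28 to 0.82 (-0.28 without DNBS_GR159897 replicate 2 and 0.82 without DNBS_GR159897 replicate 1). In the DNBS average, the 4 genes called became 2 with no filter on low values, 1 of 13 tested with at least 5 FPKM, 10 with library weights, and 2 to 6 when leaving out 1 library, with 2 without DNBS_Vehicle replicate 3, Saline_Vehicle replicates 1 or 3 or Saline_GR159897 replicate 1, and 6 without DNBS_GR159897 replicate 3. Library weights gave 3 genes in the vehicle arm and 6 in the antagonist arm, where leaving out 1 library gave 0 to 1 and 0 to 2. Over all genes, the 1226 called in the average became 436 with no filter, 3009 with weights and 402 without Saline_Vehicle replicate 3; the 41 of the vehicle arm became 13, 514 and 1, and the 176 of the antagonist arm became 18, 2154 and 19. The cause was not tested. With a replicate block, 4 genes were called in the average, the same members, and 986, 31 and 18 genes over all genes in the average, the antagonist arm and the vehicle arm. Libraries with the same number correlated between -0.0883 and 0.2021, with 2 of 18 pairs over 0.1, and 5 of 12 libraries correlated best with their own number, so the numbers do not pair the libraries. Depth is unknown, so no limit on a listed 0 can be given.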
